A study of Mus musculus with 5 samples.

Results

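Genes known from radial glia, astrocytes and oligodendrocyte precursors were followed in mouse embryonic stem (ES) cells and through 4 later stages of their differentiation to motor neurons (MNs). They are Fabp7, Slc1a3, Nes, Vim, Gfap, Aqp4, Pdgfra, Ptprz1, Aldh1l1 and Cspg4, 10 of the 19897 genes that had a probe matched to a gene symbol, and all of their 14 probes were used. Fabp7 was chosen by its measured rise in log2 signal on Day7, and the other 9, known glial markers, were listed with earlier results of these data in view. Its Day7 values are therefore a description, and no count that holds Fabp7 is support for a rise of the genes as a group.

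All 5 samples were wild type and male, and each was total RNA from a whole culture, with no transgene or mutation named in the labels. The first was undifferentiated ES cells, without retinoic acid (RA). Day2, Day3 and Day4 were embryoid bodies (EBs, floating aggregates of differentiating cells) after 8 h, 1 day and 2 days of RA, and Day7, which one label calls MN and others EB, was taken after 5 days of RA by its labels, whereas the treatment protocol gives RA and Shh (sonic hedgehog, a ventralizing signal) between days 2 and 5. Each time point had 1 single-colour array and so no replicate, which means that no difference between time points could be tested and that every fold change below compares 1 array with another. Because whole cultures were measured, more cells of a type and more RNA per cell cannot be told apart.

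Radial glia are the elongated progenitors of the embryonic brain and spinal cord, which give rise first to neurons and later to glia. Fabp7, Slc1a3, Nes and Vim are their usual markers, while Gfap, Aqp4 and Aldh1l1 are used to recognise astrocytes, and Pdgfra and Cspg4 mark oligodendrocyte precursors. Ptprz1 is found on radial glia and on both later glial types. None of the 10 genes is restricted to glia: Nes and Vim are made by many dividing progenitors and by mesenchyme, and Pdgfra by mesenchyme and primitive endoderm.

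Values are quantile-normalized log2 signals, in which a difference of 1 is a 2-fold change. A probe was called well above background by the scanner software, and a gene was called raised or lowered where its brightest probe changed at least 2-fold. Where only 1 of the 2 arrays was well above background, the other array was set no lower than the dimmest signal detected there, and the change is written as "at least". Another limit was also tried, the 95th percentile of the ERCC control probes on that array. Over 55681 probes per array, 57.5% to 65.7% were well above background on 4 of the arrays but 86.7% on Day2, where 65.6% of the ERCC control probes (4.17% to 9.38% on the other arrays) and 70.0% of the olfactory receptor probes (8.74% to 14.1%) also passed. Low signals on Day2 are therefore given as levels, and steps into or out of Day2 were not counted. The Day7 array alone lay on a second slide, for which slide and time cannot be told apart, and its E1A spike-in control probes had a median of 6.79 against 15.75 to 16.38 elsewhere. Pdgfra, the one member printed on 9 or 10 spots of each array, shows the error within an array: its spots had an SD of 0.55 on ES, where it was dim, and of 0.08 to 0.18 on the other arrays. The other 9 genes had no repeated spots.

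The sequences just before the transcription start of Fabp7, Vim and Slc1a3 are shown as examples. They were picked among the genes raised from Day4 to Day7 for holding the letters of a common promoter element, which Ptprz1, also raised, does not hold. They are the 250 bases before the start in RefSeq, mouse build GRCm38.p6, 5′ to 3′ on the gene's strand. Capitals mark CCAAT, the core bound by NF-Y, or TATAAA, the TATA box, or the same letters read on the opposite strand (ATTGG and TTTATA). The stretches lie at chr10:57784673-57784922 on the + strand for Fabp7, chr2:13574061-13574310 on the + strand for Vim and chr15:8710808-8711057 on the - strand for Slc1a3.
Fabp7: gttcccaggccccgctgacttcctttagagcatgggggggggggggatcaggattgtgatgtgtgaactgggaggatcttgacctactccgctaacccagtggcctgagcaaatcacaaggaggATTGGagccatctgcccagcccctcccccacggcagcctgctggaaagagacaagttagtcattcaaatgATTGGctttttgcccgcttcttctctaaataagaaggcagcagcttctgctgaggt
Vim: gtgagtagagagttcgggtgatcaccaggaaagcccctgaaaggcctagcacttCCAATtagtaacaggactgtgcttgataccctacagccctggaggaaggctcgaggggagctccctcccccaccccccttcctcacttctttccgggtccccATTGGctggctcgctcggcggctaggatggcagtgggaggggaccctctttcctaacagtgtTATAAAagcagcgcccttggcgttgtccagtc
Slc1a3: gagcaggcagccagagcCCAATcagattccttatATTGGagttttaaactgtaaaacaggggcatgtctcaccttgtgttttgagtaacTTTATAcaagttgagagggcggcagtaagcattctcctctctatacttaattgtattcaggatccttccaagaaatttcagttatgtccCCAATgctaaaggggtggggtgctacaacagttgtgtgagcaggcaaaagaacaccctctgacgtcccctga

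In Fabp7 both CCAAT matches were on the opposite strand, 126 and 56 bases before the start. Vim had one on the gene's strand at 196 and one on the opposite strand at 94, followed by TATAAA at 32 bases before the start. Slc1a3 had CCAAT matches 233, 216 and 72 bases before the start. CCAAT stood on either strand in 4 of the 9 genes with a promoter sequence (Fabp7, Vim, Slc1a3 and Aldh1l1) and in 33.8% of 32851 promoters of the same length, so that the match is no result about the raised genes. TGGGAA, the core bound by RBPJ, the DNA-binding partner of Notch, stood in 3 of the 9 (Fabp7, Gfap and Aldh1l1) against 21.6% of all promoters, and TATAAA in 2 (Vim and Slc1a3) against 12.4%. The STAT motif TTCNNNGAA was found in Slc1a3 alone among the 9 and in 7.02% of all promoters, while the SOX motif CCATTGTT (0.901% of all) and the NFI palindrome (0.0365%) were found in 0 of the 9. All motifs were searched on both strands, and the NFI palindrome can overlap a CCAAT match, since both hold TTGG on one strand. The Ptprz1 stretch was rich in CpG, with 22 of them against 4 in Fabp7, 8 in Vim and a median of 6 over all promoters.

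**Figure D1:**
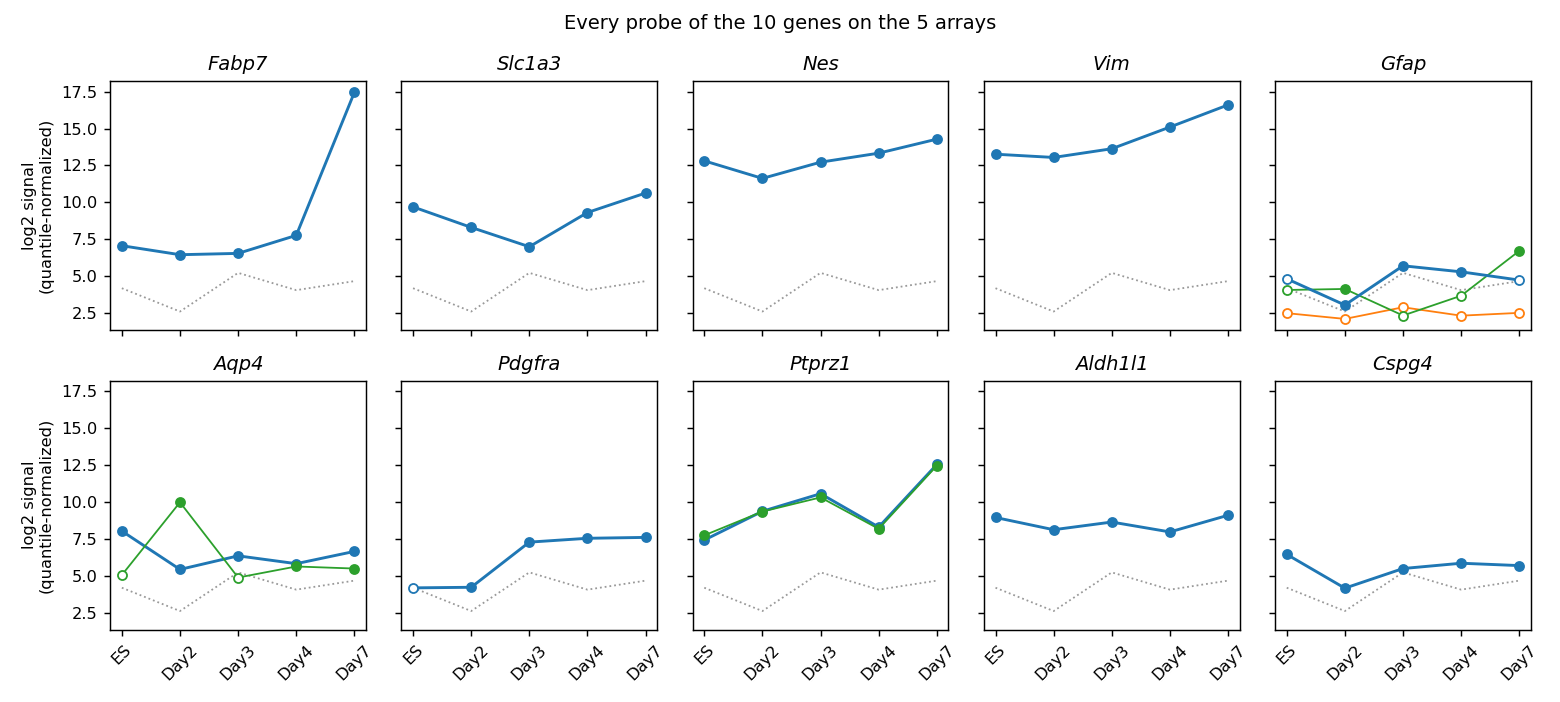
Log2 signal (quantile-normalized) of every probe of the 10 genes on the 5 arrays, which are evenly spaced and not to scale in time; each coloured line is 1 probe, the thick line is the brightest, filled points are well above background, open points are not, and the dotted line is the dimmest signal detected on that array. Fabp7 leaves a level of 6.45 to 7.76 for 17.45 on Day7, the 2 probes of Ptprz1 run together, and the probes of Gfap and of Aqp4 do not.

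Among the markers of radial glia, Fabp7 encodes the brain fatty acid binding protein, a carrier of long-chain fatty acids. Its log2 signal was 7.06 in ES cells, then 6.45, 6.54 and 7.76 on Day2, Day3 and Day4, and 17.45 on Day7, well above background on all 5 arrays. The first 4 arrays were close together and Day7 stood far above them. From Day3 to Day4, before the MN stage, Fabp7 rose by 1.21, which is 2.32-fold. Against ES cells the Day4 signal differed by 0.70, under the 2-fold limit, and by -0.18 without normalization. The step from Day4 to Day7 was 9.70, or 830-fold, and that from ES cells to Day7 was 10.39, or 1340-fold. These ranked 1 of 15967 genes and 3 of 15827 genes with a value, which restates the reason for which the gene was listed. Under the other ways of processing, the Day4 to Day7 step lay between 9.01 and 10.32.

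The 4 genes whose course over the 5 arrays lay nearest to that of Fabp7, by the distance between the centred log2 values among 15156 genes detected on Day7, were Vtn (distance 1.62), Pcp4 (1.87), Rbfox1 (1.90) and Sncg (2.10). Vtn encodes vitronectin, an adhesive protein of the extracellular matrix. Rbfox1 encodes a neuronal splicing regulator, Sncg the gamma-synuclein of neurons and Pcp4 a calmodulin-binding peptide. Since the distance turns mainly on the Day7 step for which Fabp7 was chosen, these neighbours are a description of that step. Vtn was not well above background on ES and Day3, and Pcp4 and Rbfox1 were not on Day3. The distances of the 8 other members detected on Day7 by their brightest probe, all but Gfap, were 6.90 for Ptprz1 and for Vim and up to 9.42 for Aqp4.

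**Figure D2:**
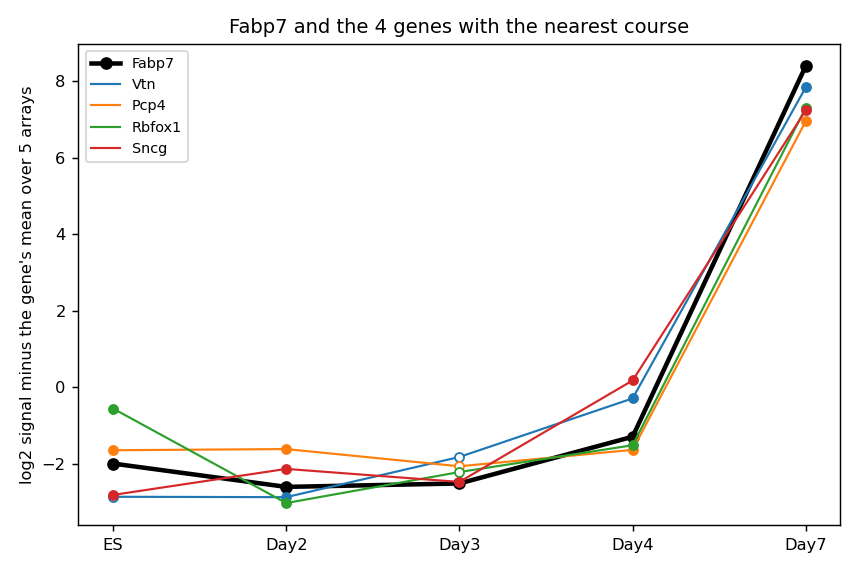
Log2 signal of Fabp7 and of the 4 genes with the nearest course, each minus its own mean over the 5 arrays; open points are not well above background and were set no lower than the dimmest signal detected on their array. The shared high point on Day7 follows from how the genes were picked. Before it, all the lines were higher on Day4 than on Day3, by unlike amounts. Fabp7 went from 6.54 to 7.76 and Sncg from 7.88 to 10.53, while Vtn, Pcp4 and Rbfox1 were not detected on Day3 and had 6.75, 5.65 and 5.92 on Day4.

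Of the other 9 genes of the fatty acid binding protein family, 1 was raised and 2 were lowered from ES cells to Day7, with a value for 4, beside 24.8% and 24.4% of all genes. Fabp5, the epidermal form, which is also made in the nervous system, had log2 signals of 14.52, 13.79, 13.21, 14.45 and 16.90 in time order, and thus rose 5.47-fold from Day4 to Day7. Fabp3, the heart form, had 15.51 in ES cells and 13.87 on Day7 and fell by 1.63, with -1.77 from its other probe, and Fabp12 was at least 3.03-fold lower on Day7, with no value under the limit from the ERCC control probes. Fabp1, Fabp4, Fabp9 and Pmp2, the myelin form, missed the background flag on the ES, Day4 and Day7 arrays.

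Slc1a3 encodes GLAST, the glutamate-aspartate transporter of radial glia and astrocytes. Its log2 signal was 9.69 in ES cells, then 8.30, 6.99 and 9.31 on Day2, Day3 and Day4, and 10.63 on Day7. The course was a trough, with Day3 lowest and Day7 highest. Signal rose 4.98-fold from Day3 to Day4 and another 2.51-fold from Day4 to Day7, yet the difference between ES cells and Day7 was 0.94, under the 2-fold limit. Within the transporter family, Slc1a2 (GLT-1, the main astrocytic glutamate transporter) missed the background flag in ES cells and had 6.58 on Day4 and 7.57 on Day7, at least 3.39 higher on the log2 scale on Day7 than in ES cells by this probe (0.99 with the limit from the ERCC control probes), while another probe of the gene gave 1.02 and a further one no value. Slc1a1, the neuronal glutamate transporter, rose 29.7-fold from Day4 (4.69) to Day7 (9.58). Slc1a5, a neutral amino acid transporter, fell by 2.78 from ES cells to Day7, and Slc1a4, Slc1a6 and Slc1a7 changed by less than 2-fold in the 3 comparisons counted.

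Nestin and vimentin are intermediate filament proteins that form the cytoskeleton of neural progenitors. Nes had log2 signals of 12.81 in ES cells, 11.62, 12.72 and 13.33 in the EBs of Day2, Day3 and Day4, and 14.28 on Day7. It was thus detected well in ES cells already, and Day7 was highest. The change from ES cells to Day7 was 1.47 (2.77-fold), but 0.85 when arrays were scaled by their 75th percentile, which put it under the limit. Vim had 13.26, 13.04, 13.63, 15.10 and 16.60, and its order from Day2 onwards followed time. Vim was raised in all 3 comparisons, 3.59-fold up to Day4, another 2.84-fold between Day4 and Day7, and 10.2-fold over the whole course. Without normalization the step up to Day4 was 0.46, so that this call was lost. With the 75th percentile scaling the Day4 to Day7 step was 0.99, just under the limit, and the step from ES cells to Day7 was 2.40.

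Other intermediate filament genes moved in both directions from Day4 to Day7. The neuronal filament genes Nefm (193-fold), Nefl (128-fold), Ina (55.5-fold), Prph (14.2-fold) and Nefh (7.46-fold) rose, as did Synm by 1.26, whereas the simple epithelial keratins Krt8 and Krt18 fell by 2.82 and 2.41 and the muscle gene Des was at least 12.1-fold lower. That is 6 of 9 genes raised and 3 lowered, where 18.2% of all genes were raised and 18.3% lowered, beside 1.94-fold for Nes and 2.84-fold for Vim.

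Ptprz1 encodes a receptor-type tyrosine phosphatase that carries chondroitin sulphate chains and binds pleiotrophin. Its brighter probe had log2 signals of 7.41, 9.36, 10.55, 8.29 and 12.53 in time order, and its other probe had 7.73, 9.34, 10.30, 8.17 and 12.45. Both probes showed a first peak on Day3, a dip on Day4 and the highest signal on Day7. The fall from Day3 to Day4 was -2.26 and -2.13 on the log2 scale by the 2 probes, and the rise from Day4 to Day7 was 18.9-fold and 19.4-fold. From ES cells to Day7 the rise was 34.8-fold by the brighter probe and 26.5-fold by the other. No other member of the 10 was lowered from Day3 to Day4.

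Of 7 ligands and contact partners of Ptprz1, 4 were raised and 0 lowered from ES cells to Day7, with a value for 6, where 24.8% of all genes were raised and 24.4% lowered. Under the limit from the ERCC control probes, Tnr (0.04) was no longer among the 4. Ptn, which encodes the ligand pleiotrophin, had 7.58, 8.97, 9.99, 8.87 and 12.36 on the 5 arrays in time order, with a smaller Day3 peak of its own, and rose 11.3-fold from Day4 to Day7. The neuronal adhesion genes Cntn1 and Nrcam rose 32.6-fold and 7.50-fold over the same step, and Tnr, for tenascin-R, at least 5.92-fold (at least 3.07-fold with the limit from the ERCC control probes). Mdk, the related ligand midkine, went the other way and fell by 1.53 from 17.20 on Day4 to 15.67 on Day7. Tnc, for tenascin-C, passed the background flag on Day2 only.

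The astrocyte genes did not share a course. Aldh1l1, for a folate enzyme that is widely used as an astrocyte marker, had log2 signals of 8.94 in ES cells, 8.11, 8.63 and 7.96 in the EBs of Day2, Day3 and Day4, and 9.09 on Day7. The 5 values spanned little more than 1 unit, with ES cells and Day7 near the top. The step from Day4 to Day7 was 2.19-fold, and that from ES cells to Day7 was 0.16. Over the other ways of processing the Day4 to Day7 step ranged from 0.91 to 2.46.

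Gfap, for the main filament protein of mature astrocytes, was near background. Its brightest probe had 4.82, 3.04, 5.70, 5.29 and 4.73 in time order and passed as well above background on Day2, Day3 and Day4 but not on ES or Day7, so that no change from ES cells to Day7 can be given for it. A second probe, designed to another RefSeq transcript of the gene, had 4.06, 4.13, 2.33, 3.67 and 6.71 and passed on Day2 and Day7, and by it Day7 was at least 5.78-fold above ES cells and at least 6.31-fold above Day4, bounds that became 0.13 and 1.71 on the log2 scale with a limit taken from the ERCC control probes. The remaining probe, to the same transcript as the second, had 2.10 to 2.89 and passed on none of the 5 arrays. The 3 probes thus gave 3 different pictures, and the direction for Gfap between Day4 and Day7 depended on the probe.

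Aqp4, for the water channel of astrocyte endfeet, was also read differently by its 2 probes. The brighter had 8.02 in ES cells, then 5.42, 6.34, 5.81 and 6.64, well above background on all 5 arrays, and was highest in ES cells. By it Aqp4 was 4.62-fold lower on Day4 and 2.60-fold lower on Day7 than in ES cells. The other probe, to the same transcript, had 5.04, 9.97, 4.87, 5.62 and 5.48, was not well above background on ES or Day3, and placed Day4 and Day7 at least 0.58 and at least 0.44 above ES cells, with no value under the limit from the ERCC control probes. Its one high value was on Day2, the array on which control probes were also raised. Of 10 other aquaporin genes, 3 (Aqp2, Aqp6 and Aqp7) were lowered and 0 raised from ES cells to Day7, with a value for 8, beside 24.4% and 24.8% of all genes.

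Pdgfra encodes the PDGF receptor alpha, through which PDGF-A drives the division of oligodendrocyte precursors. Its log2 signal was 4.17 in ES cells, where the probe missed the background flag, then 4.21, 7.27 and 7.53 on Day2, Day3 and Day4, and 7.59 on Day7. The last 3 arrays were higher than ES cells. Where Day2 lay depended on the scaling: with the 75th percentile scaling its signal was 1.67 above that of ES cells and 1.39 below that of Day3. The step from Day4 to Day7 was 0.07 after quantile normalization and 1.33 without normalization. Against ES cells it was at least 10.2-fold higher on Day4 and at least 10.7-fold higher on Day7. These bounds rest on the limit set for ES cells, and with a limit taken from the ERCC control probes they became 0.95 and 1.02 on the log2 scale.

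The other PDGF genes did not follow Pdgfra, except Pdgfrb. Pdgfrb, the receptor of pericytes and mesenchyme, had 2.36 in ES cells (not well above background), 5.72, 8.12, 8.43 and 8.10, and was at least 15.1-fold higher on Day7 than in ES cells, or at least 2.86-fold with the limit from the ERCC control probes. The ligand gene Pdgfa changed by -0.24 from ES cells to Day7 and Pdgfb fell by 2.43. Of 12 markers of mesenchyme and pericytes, 9 had a value from ES cells to Day4. Of these, 5 were raised (Col1a2, Col3a1, Pdgfrb, Acta2 and Foxc1), 1 was lowered and 3 changed less than 2-fold, where 17.1% of all genes were raised and 14.5% lowered. Of the 12, 7 were well above background in ES cells, 9 on Day4 and 10 on Day7, and Prrx1 passed on Day2 only. Of 10 primitive endoderm markers with a value, 6 were raised and 0 lowered up to Day4, beside the same shares. From Day4 to Day7, 1 of them (Foxa2, also a floor plate gene) was raised and 6 were lowered, beside 18.2% and 18.3% of all genes. From ES cells to Day7, 3 were raised and 3 lowered, beside 24.8% and 24.4% of all genes. Sox17, counted as lowered in this last comparison, had no value there under the limit from the ERCC control probes. Afp was not well above background on any of the 5 arrays. The part of these cell types in the Pdgfra, Nes and Vim signals was not tested.

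Cspg4, which encodes the NG2 proteoglycan of oligodendrocyte precursors and pericytes, had log2 signals of 6.44 in ES cells, then 4.15, 5.48, 5.84 and 5.68, well above background on all 5 arrays. It was highest in ES cells and was not raised in any of the 3 comparisons, with changes from ES cells of -0.60 by Day4 and -0.76 by Day7, and of -0.16 between these. Its ES signal lay under the limit from the ERCC control probes (6.58), with which no change from ES cells could be given. By the limit set from the dimmest detected signal, Pdgfra and Cspg4, both genes of oligodendrocyte precursors, had unlike courses.

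Counted together, 2 of the 10 genes were raised from ES cells to Day4 (Vim and Pdgfra), where 17.1% of 15760 genes were raised, and 1 was lowered (Aqp4), where 14.5% of all genes were. The median change was 0.49, against 0.05 over all genes. From Day4 to Day7, 5 were raised (Fabp7, Slc1a3, Vim, Ptprz1 and Aldh1l1) beside 18.2% of 15967 genes, and 0 were lowered beside 18.3%, and the median was 1.04 against -0.13. From ES cells to Day7, 5 of the 9 with a value were raised (Fabp7, Nes, Vim, Pdgfra and Ptprz1) beside 24.8% of 15827 genes and 1 was lowered (Aqp4) beside 24.4%, with a median of 1.47 against -0.07. With the 75th percentile scaling the shares over all genes were 22.0% raised and 32.4% lowered for this last comparison. Without normalization they were 5.75% and 54.6% for the step up to Day4 and 54.2% and 3.46% for the one after it. The comparisons share arrays, so their counts are not independent, and the count with Fabp7 was partly set by the choice of that gene.

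**Figure D3:**
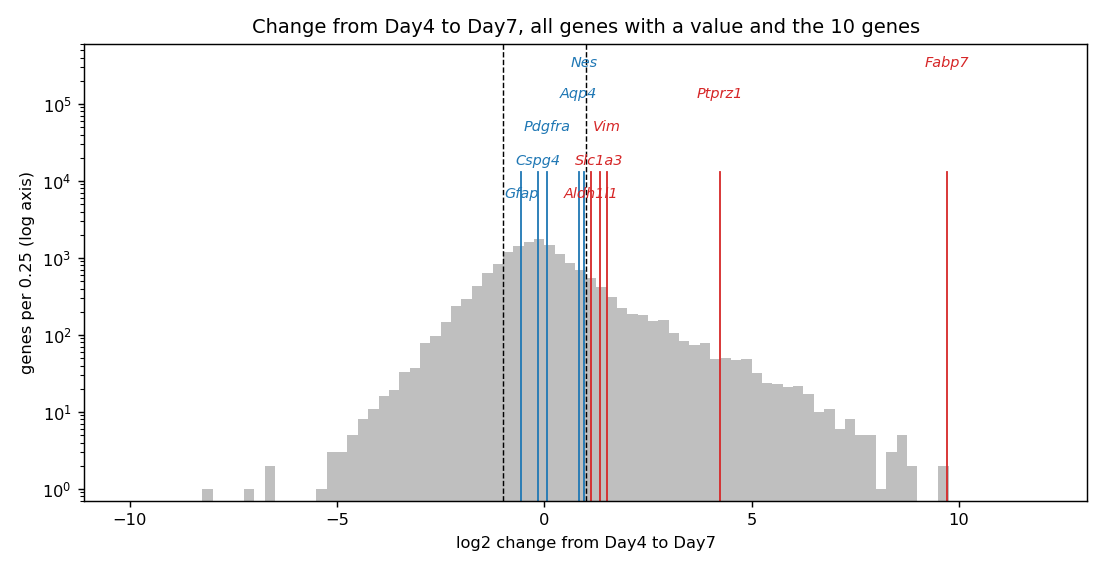
Number of genes (log axis) by log2 change from Day4 to Day7 in steps of 0.25, for the 15967 genes with a value; lines show the 10 genes by their brightest probe, red where raised at least 2-fold and blue otherwise, and dashed lines mark 2-fold changes. Fabp7 lies at 9.70 on the right edge, Ptprz1 at 4.24, and Aldh1l1, Slc1a3 and Vim just past the 2-fold line; the Gfap value of -0.56 is a bound.

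Other genes of the same cell types, from lists of known markers, are given for comparison. Of 18 other radial glia and progenitor genes, 9 were raised and 2 lowered up to Day4, 5 raised and 4 lowered after it, and 8 raised and 2 lowered from ES cells to Day7, with a value for 16 in each. The shares of all genes raised and lowered were 17.1% and 14.5%, 18.2% and 18.3%, and 24.8% and 24.4% in these comparisons, which also stand beside the counts of the lists that follow. Over the step to Day7, the BMP target Id4 rose 41.3-fold and the endothelin receptor gene Ednrb 6.72-fold, while the patterning factors Pax6 and Gli3 fell by 5.11 and 3.17. Hes5, a Notch effector, had 6.63 in ES cells, 13.11 on Day4 and 12.59 on Day7, and thus was high on both late arrays. Sox9, needed for gliogenesis, missed the background flag in ES cells and had 6.99 on Day3, 9.56 on Day4 and 10.53 on Day7. Sox2, the common factor of stem cells and progenitors, ranged from 11.44 on Day4 to 12.70 in ES cells.

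Among 10 genes listed for the switch to gliogenesis, 6 (Nfia, Nfix, Sox9, Sox8, Zbtb20 and Pou3f2) were raised and 1 (Atf3) lowered from ES cells to Day7. The list is not limited to genes that drive gliogenesis, so the count is no measure of it. With the limit from the ERCC control probes, Nfix (0.18) and Sox8 (0.1) were no longer among the 6. Nfia, which starts gliogenesis in the spinal cord, was well above background on Day2 and Day7 and not on the other 3 arrays. It had 2.47 on Day4 and 8.19 on Day7, a rise of at least 17.6-fold (at least 9.14-fold with the limit from the ERCC control probes). From ES cells to Day7 this probe gave at least 4.01 on the log2 scale (1.61 with the limit from the ERCC control probes) and another probe of the gene 1.40. Zbtb20 rose 4.64-fold from Day4 to Day7. Nfix, a relative of Nfia, fell by 3.36 over the same step, from 10.13 to 6.76.

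Of 18 other astrocyte genes, 7 were raised and 5 lowered from ES cells to Day7, with a value for 15. With the limit from the ERCC control probes, Slc1a2 (0.99) was no longer among the 7, and Agt, counted as lowered, had no value. Sparcl1, for the secreted protein hevin, rose 228-fold from 5.64 to 13.47, Fgfr3, for a growth factor receptor of progenitors and astrocytes, rose 14.9-fold and Acsbg1, for a fatty acid ligase, 8.18-fold. The gap junction gene Gja1 fell by 4.46, and the lipoprotein genes Apoe and Clu fell by 3.23 and 2.11. S100b and Gjb6, both usual astrocyte markers, missed the background flag on the ES, Day4 and Day7 arrays. Of 16 other oligodendrocyte lineage genes, 6 were raised and 7 lowered, with a median of -0.10. Cldn11, counted as raised, and Myrf, counted as lowered, had no value under the limit from the ERCC control probes. Olig2, which in this system also marks MN progenitors, had 7.87 on Day3, 11.47 on Day4 and 7.35 on Day7, and Sox10, the lineage factor, changed by 0.07 from ES cells to Day7. Gpr17, a receptor of committed precursors, was at least 3.59 higher on Day7 than in ES cells on the log2 scale, or at least 1.19 with the limit from the ERCC control probes, while Enpp6, of newly formed oligodendrocytes, was not well above background on any array.

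Of 12 neuron genes, 11 were raised from Day4 to Day7, whose source label names MNs, with a median of 5.83, larger than the 1.04 of the 10 members. Of 10 pluripotency genes, 9 were lowered from ES cells to Day7, with a median of -3.60. Microglial genes gave 0 raised and 0 lowered of 6 with a value, neural crest and Schwann cell genes 2 raised and 4 lowered of 10, and mesenchyme and pericyte genes 8 raised and 1 lowered of 11, with a median of 2.53. With the limit from the ERCC control probes, the mesenchyme genes Foxc1 (0.62) and Lum (0.13) were no longer raised. Rgs5, counted as raised, and Tbx18 and the neural crest gene Erbb3, counted as lowered, then had no value.

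**Figure D4:**
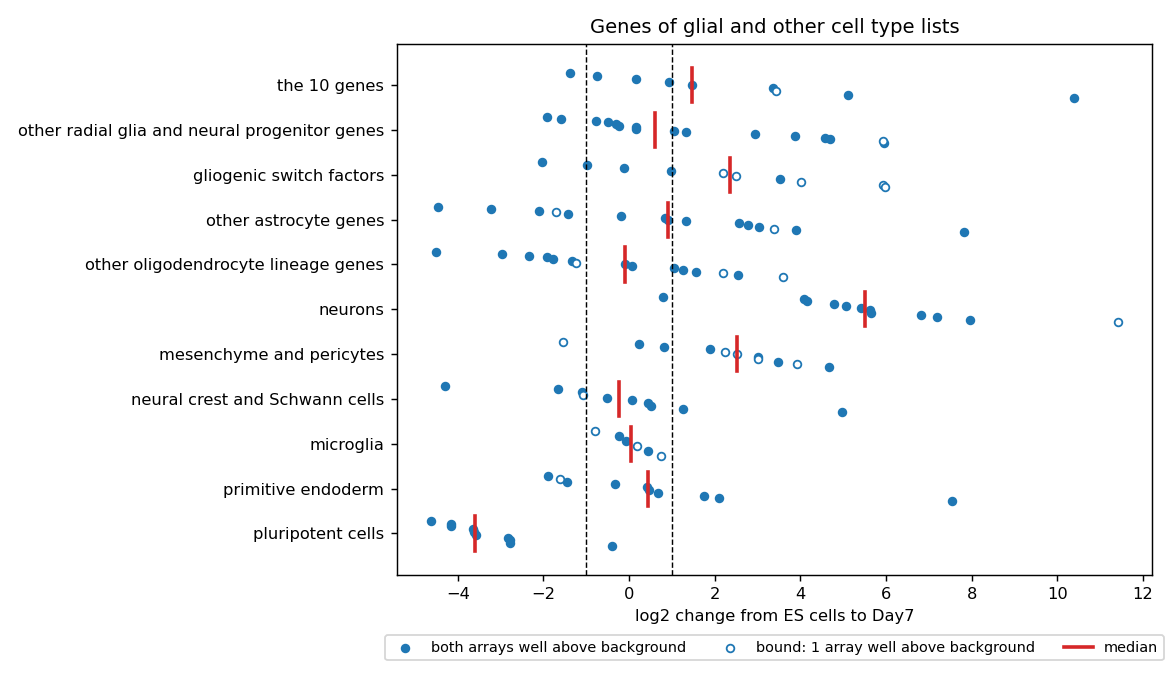
Log2 change from ES cells to Day7 of each gene of the 10 members and of lists of other cell types; filled points were well above background on both arrays, open points on 1 array and are bounds, red bars are medians and dashed lines mark 2-fold changes. Neuron genes lie farthest to the right with a median of 5.52, pluripotency genes lie to the left at -3.60, and the oligodendrocyte lineage genes spread to both sides of a median of -0.10.

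The change from ES cells to Day7 was also read under the other ways of processing. Over the alternatives run, Ptprz1 lay between 4.71 and 5.41 and Vim between 2.40 and 3.35, and Slc1a3 lay around the 2-fold limit, from 0.92 to 1.28. Aldh1l1 (0.10 to 0.52) and Cspg4 (-0.95 to -0.38, with no value under the limit from the ERCC control probes) stayed under it.

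**Figure D5:**
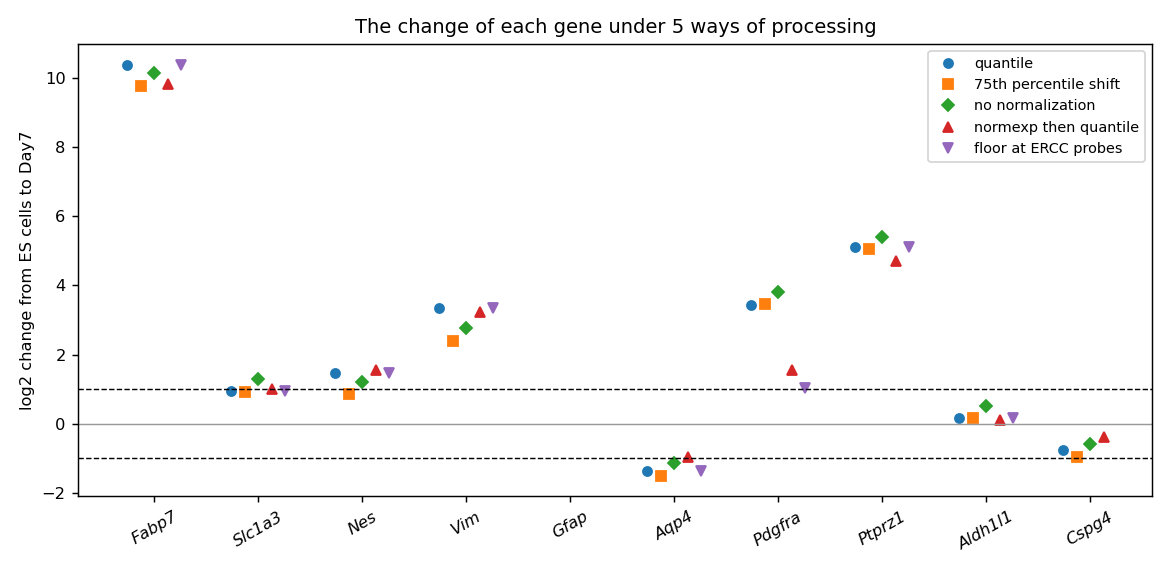
Log2 change from ES cells to Day7 of the 10 genes under 5 ways of processing, with dashed lines at 2-fold changes; Gfap has no value because its brightest probe was not well above background on either array. Fabp7 stays between 9.78 and 10.39, Nes crosses the 2-fold line at 0.85 after scaling by the 75th percentile, and Pdgfra, a bound, drops to 1.02 with the limit from the ERCC control probes.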

How the data were processed

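Total RNA of 5 cultures (ES, Day2, Day3, Day4 and Day7) was hybridised to 5 single-colour Agilent 8x60K mouse arrays, 1 per time point. The authors deposited the scanner output, processed with Agilent Feature Extraction 10.5.1 per the labels, in which the intensity of each spot had its background subtracted and spatial trend removed, with no scaling between arrays. The deposited log2 table equalled the log2 intensity minus each array's 75th percentile within 0.01 for 100.0% of probes on each array, with column medians of -3.55, -2.62, -3.71, -3.53 and -3.66 from ES to Day7, and it served as an alternative. A figure legend of the study names quantile analysis, so quantile normalization was used here.

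Here, log2 intensities were averaged over the spots of a probe after dropping controls and outliers, and arrays were then quantile-normalized (limma 3.58.1, R 4.3.3). Later steps used Python 3.11.15, numpy 2.4.6, pandas 2.3.3 and matplotlib 3.10.9, and the steps were tested on simulated data. Probe accessions were matched to RefSeq symbols of GRCm38.p6 (26300 of 55681 probes, 19897 genes, 5339 of them with more than 1 probe). The brightest probe stood for a gene. A probe was well above background where a share of at least 0.5 of its spots had the scanner's flag, a side without it was set to the higher of its own signal and the lowest signal among detected probes on that array, and no change was given where neither array passed. Named were the 10 members, genes taken from those of each list that changed at least 2-fold in a comparison, and the 4 genes nearest to Fabp7, a further one being not reported here. List genes named without such a change, such as Sox10, Pdgfa and Slc1a4, were chosen after their values were seen. The members and lists were chosen with earlier results of these data known. With 1 array per time point there were no replicates and no tests. The number of arrays limits the precision. Alternatives were another scaling, normexp (offset 50), no normalization, other detection rules, other probes and folds of 1.5 and 4.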

Additional observations from a re-analysis of the deposited data

How the results depend on the processing

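Several alternatives could not move a change. The deposited table repeated the 75th percentile scaling. The detection rules other than the ERCC limit returned the same value wherever both arrays were well above background. The use of other probes left the 7 genes with 1 probe as they were. The counts that follow are therefore no measure of stability. Of 279 changes of single genes under an alternative, 242 moved by less than 1.5 times, and 8 changed sign. Of these 8, 2 were changes of at least 2-fold, both Aqp4 by its dimmest probe, at 0.58 from ES cells to Day4 and 0.44 from ES cells to Day7. The other 6 were under 2-fold: without normalization Fabp7 (-0.18) and Nes (-0.83) from ES cells to Day4 and Cspg4 (0.97) from Day4 to Day7, and over this last step also Cspg4 (0.05) after normexp, Gfap (1.05) with the mean of its probes and Aqp4 (-0.14) by its dimmest probe. From ES cells to Day4, the count of raised members was 2 and became 1 without normalization (5.75% of all genes), 1 where both arrays had to be well above background (13.9%), 1 with the limit from the 95th percentile of ERCC probes (14.3%), 4 at 1.5-fold (28.8%) and 1 at 4-fold (5.22%). The count of lowered members was 1 and became 4 without normalization (54.6%), 0 with the mean of all probes (13.8%), 0 with the dimmest probe (13.7%) and 3 at 1.5-fold (24.5%). From Day4 to Day7, the count of raised members was 5 and became 8 without normalization (54.2%) and 2 at 4-fold (8.82%). From ES cells to Day7, the count of lowered members was 1 and became 0 after normexp (19.2%), 0 with the mean of all probes (24.0%), 0 with the dimmest probe (25%), 2 at 1.5-fold (35.5%) and 0 at 4-fold (8.38%). The causes were not tested beyond what the rules themselves set. The count of 5 raised from ES cells to Day7 and that of 0 lowered from Day4 to Day7 stayed within 1.5 times under the alternatives run. The median change of all genes was -1.11 from ES cells to Day4 without normalization, and -0.36 from ES cells to Day7 after scaling by the 75th percentile. No paired analysis was possible because only 1 array was run at every stage. For the same reason no replicate could be left out, and slide could not enter as a block because Day7 alone was on the other slide. Signals near background limit what can be said of Gfap, and of Pdgfra and Cspg4 in ES cells, and the disagreement of its 2 probes what can be said of Aqp4.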
